A study of Rattus norvegicus with 2 samples.

Results

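The acyl-CoA dehydrogenases are a family of mitochondrial enzymes, and 10 of their genes (Acads, Acadm, Acadl, Acadvl, Acadsb, Acad8, Acad9, Acad10, Ivd and Gcdh) were looked up by gene symbol on arrays of rat thymus. A row of the arrays carried the symbol of 8 of them, among 15037 genes with a named row in all. Acad8 and Acad10 had no row under their symbol or gene number and were not analysed here. The family was chosen by the cocaine minus control difference of Acads, which the study had picked from these same arrays, so its value is given as a description. The cocaine group was male Sprague-Dawley rats, 8 weeks old at the start, given 20 mg/kg/day cocaine hydrochloride in saline through the tail vein for 7 days. The control group was male rats of that strain and age given saline alone by the methods, while the title of the sample reads No Stimulation and its note on treatment repeats the cocaine dose. Thymus was taken a day after the last dose, and RNA of each group went to 1 Clariom S array, which measures a gene by a set of short probes called a transcript cluster. Whether an array held RNA of 1 rat or a pool is not stated in the methods or labels. A single array stood for each group, so replicate error is unknown, nothing was tested, and precision is limited by the 2 arrays. Values are linear intensities as deposited, or log2 intensities after quantile normalization of both arrays, as named.

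Each acyl-CoA dehydrogenase takes a pair of hydrogens from the carbons next to the thioester of its acyl-CoA, using bound FAD, and passes the electrons to the electron transfer flavoprotein and on to the respiratory chain. In β-oxidation this is the opening step of each round, and the members divide the work by chain length: Acads acts on short chains such as butyryl-CoA, Acadm on medium chains, Acadl on long chains, and Acadvl and Acad9 on very long chains. Other members break down amino acids: Acadsb acts in the isoleucine pathway, Acad8 in the valine pathway, Ivd in the leucine pathway, and Gcdh in the lysine and tryptophan pathways. Acad9 also serves in the assembly of respiratory complex I.

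The promoters of 3 members are shown because they stand for the span of the results: Acads had the largest difference of the family, Ivd the next, and Acadvl one of the smallest. The sequences are from RefSeq (GRCr8), 5′ to 3′ on the strand of the gene, from 250 bases before the start in RefSeq's promoter table up to that start, or up to the gene span of RefSeq where that begins earlier. They lie at chr12:47154083-47154258 (plus strand, 176 bases), chr3:126305334-126305583 (plus strand, 250 bases) and chr10:55236787-55236955 (minus strand, 169 bases). Capitals mark a CCAAT box, here read on the other strand as ATTGG, in Acads and Ivd, and a nuclear receptor half-site (AGGTCA) in Acadvl.
Acads: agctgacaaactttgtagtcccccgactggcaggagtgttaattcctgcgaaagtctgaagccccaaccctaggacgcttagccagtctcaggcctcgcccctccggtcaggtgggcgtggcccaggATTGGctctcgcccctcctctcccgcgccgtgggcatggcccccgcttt
Ivd: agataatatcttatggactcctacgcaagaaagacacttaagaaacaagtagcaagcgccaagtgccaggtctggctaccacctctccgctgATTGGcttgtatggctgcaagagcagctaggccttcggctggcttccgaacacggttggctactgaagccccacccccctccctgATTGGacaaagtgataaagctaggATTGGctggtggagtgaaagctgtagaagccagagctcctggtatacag
Acadvl: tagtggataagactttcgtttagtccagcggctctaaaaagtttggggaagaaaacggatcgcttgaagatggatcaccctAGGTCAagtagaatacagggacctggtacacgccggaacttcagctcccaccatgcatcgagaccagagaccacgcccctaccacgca

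Of the 10 genes, 9 had an entry in the promoter table, and motifs were searched on both strands of the whole window of 250 bases. Acads held a CCAAT box, 123 bases before the start, and a GC box (GGGCGG), 65 bases before it and within the gene span, so not printed. Ivd held 3 CCAAT boxes and no GC box. Acadvl held 2 half-sites, 169 and 17 bases before the start, of which the nearer one is not printed, and was the only one of the 9 with a half-site. Among 33469 promoters of the same length, 34.0% held a CCAAT box, 30.5% a GC box and 14.1% a half-site. A direct repeat of the half-site with 1 base between, the element that PPAR and RXR bind, was spelled out in 0.0508% of promoters and in 0 of the 9, and the estrogen-related receptor site (TCAAGGTCA), which contains the half-site, in 0.388% and in 0 of the 9. None of the 9 held an E-box (CACGTG, in 5.59% of promoters) or a TATA box (TATAAA, in 12.9%). The GC content of the 9 windows ran from 52.0% in Ivd to 77.2% in Acad10, with 65.6% in Acads, against a median of 51.2% over all promoters. A match is a description of the letters and not a bound site.

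Acads, the short-chain enzyme, had a deposited intensity of 153 in the cocaine thymus and 67.8 in the control thymus. On the log2 scale it was 7.25 in the cocaine thymus and 6.06 in the control thymus, a difference of 1.19 (2.29-fold higher). Counted from the brightest of 23188 transcript clusters, its row was at place 10253 on the cocaine array and at place 13885 on the control array, which are percentiles 55.8 and 40.1. Its difference was the highest but 10 among all transcript clusters (place 11) and at place 8 among named genes. Of the 1000 transcript clusters closest to it in mean intensity, 1 had a difference as high, and 5 had one as large in either direction. The central 95% of these 1000 ran from -0.64 to 0.60.

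The Acads row was dim. The arrays carry 23 background rows, grouped by GC content, whose deposited intensities ran from 8.75 to 177 with a median of 109, and each of them held the same value on both arrays. Acads lay within that range on both arrays, above the median of the background rows with cocaine and below it in the control. No background row could be matched to Acads, since the GC content of its probes is unknown here. The other 7 measured members lay between 202 and 576 on both arrays, above every background row. How far background contributed to the Acads difference was not tested.

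**Figure D1:**
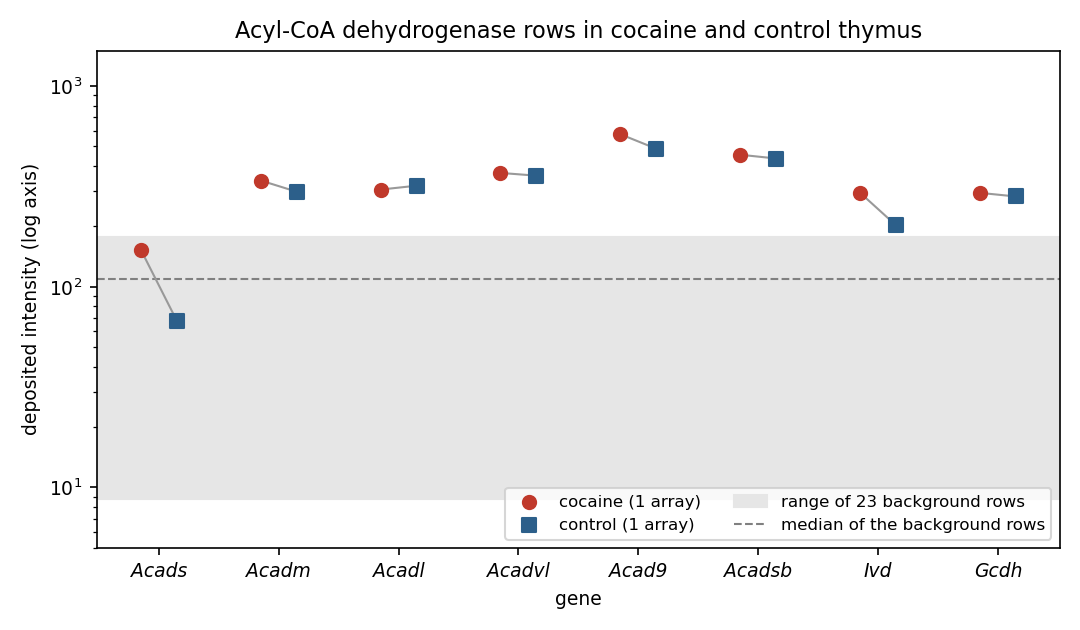
Deposited intensity (log axis) of the 8 measured members on the cocaine array (circles, left) and the control array (squares, right), 1 array each, with the range (grey, 8.75 to 177) and median (dashed, 109) of the 23 background rows. Acads is the only member within the background range, at 153 with cocaine and 67.8 in the control.

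The members for longer chains lay close to the control. Acadm, the medium-chain enzyme, had a log2 intensity of 8.38 in the cocaine thymus and 8.24 in the control thymus, a difference of 0.14. Acadl, the long-chain enzyme, was 8.23 with cocaine and 8.34 in the control, a difference of -0.11, and was the only member below 0 under each of the 4 scalings tried. Acadvl, the very-long-chain enzyme of the inner membrane, was 8.50 with cocaine and 8.51 in the control, and Acad9 was 9.14 with cocaine and 8.96 in the control. These 4 differences ran from -0.11 to 0.17 with a median of 0.06. Set beside the Acads difference, which chose the family and comes from a row within the background range, they were lower by 1.02 (Acad9) to 1.30 (Acadl) on the log2 scale, and Acadm, the enzyme nearest in chain length, was lower by 1.05. These gaps are a description and rest on the dim Acads row.

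Among the members of amino acid breakdown, Ivd, the isovaleryl-CoA dehydrogenase, had a log2 intensity of 8.18 in the cocaine thymus and 7.67 in the control thymus. Its difference of 0.51 (1.42-fold higher) was at percentile 96.8 of all transcript clusters. Of the 1000 transcript clusters closest in mean intensity, 42 were as high, and 81 had a difference as large in either direction. Acadsb was 8.79 with cocaine and 8.81 in the control, and Gcdh was 8.18 with cocaine and 8.15 in the control. With the same limits, the gap between Acads and Ivd was 0.68 on the log2 scale, that to Acadsb was 1.22 and that to Gcdh was 1.16.

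In the cocaine thymus 1 of the 8 measured members (Acads) was higher by more than 1.5-fold and 0 were lower by as much, beside 1.98% and 2.29% of all 23188 transcript clusters. By more than 2-fold these were also 1 and 0, beside 0.151% and 0.224%. Since Acads brought the family into view, nothing is read from its count. The other 7 members all lay within 1.5-fold, between -0.11 and 0.51, and each lay inside the central 95% of the 1000 transcript clusters of like intensity. The median difference was 0.09 over the 8 members and 0.03 without Acads, beside 0.01 over all transcript clusters. Counting direction alone, 5 members were higher and 3 lower after quantile normalization, but 7 were higher and 1 lower under each of the other 3 scalings, since Acadvl (-0.01) and Acadsb (-0.02) turned to values between 0.01 and 0.08. Of all transcript clusters, 6300 (27.2%) held exactly the same deposited value on both arrays, and 0 of the 8 members did.

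**Figure D2:**
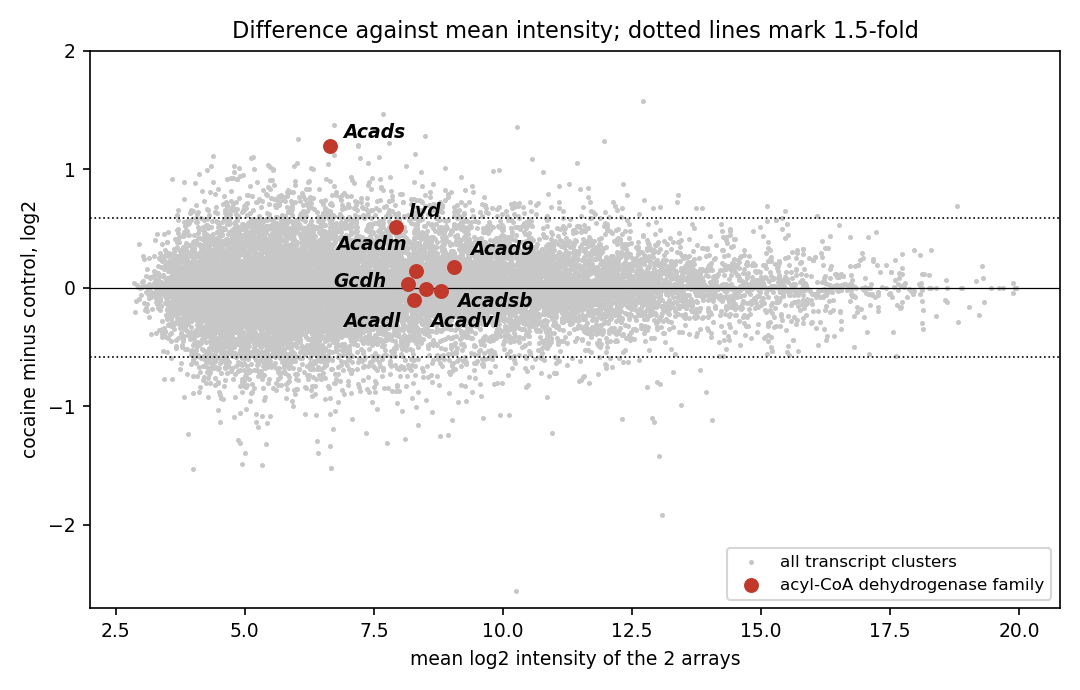
Cocaine minus control log2 difference against the mean log2 intensity of both arrays for all 23188 transcript clusters (grey) and the 8 measured members (red), with dotted lines at 1.5-fold. Acads (1.19) lies at the upper edge of the cloud near the middle of the intensity range, Ivd (0.51) just inside the dotted line, and the other 6 members between -0.11 and 0.17.

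Acad11, a further member of the family that was not in the list of 10, had a log2 intensity of 7.05 in the cocaine thymus and 6.55 in the control thymus, a difference of 0.49 at percentile 96.5. Its deposited intensities, 133 with cocaine and 95.1 in the control, both lay within the range of the background rows, as those of Acads did. The acyl-CoA oxidases carry out the corresponding step in peroxisomes and hand their electrons to oxygen. Acox3 was 7.33 with cocaine and 7.48 in the control, and the dim Acox2 was 4.14 with cocaine and 4.12 in the control. All 8 measured genes of peroxisomal oxidation, of 10 listed, lay within 1.5-fold, with a median of -0.01. Their largest differences were those of Hsd17b4, the bifunctional enzyme of the later peroxisomal steps (a difference of 0.26), and of Crot, the carnitine octanoyltransferase (9.46 with cocaine and 9.21 in the control).

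The electrons of all these mitochondrial dehydrogenases pass through the electron transfer flavoprotein, whose subunits are Etfa and Etfb, to its oxidoreductase Etfdh. Etfa had a log2 intensity of 11.72 in the cocaine thymus and 11.50 in the control thymus, Etfb was 7.78 with cocaine and 7.81 in the control, and Etfdh was 8.72 with cocaine and 8.88 in the control. The deposited intensity of Etfb was 222 with cocaine and 221 in the control, so its lower log2 value came from quantile normalization. All 3 acceptors lay within 1.5-fold. Of 5 genes that supply FAD, 4 were measured, all within 1.5-fold after quantile normalization. For 2 of these the deposited values of both arrays were identical. Rfk, the riboflavin kinase, was 8.21 with cocaine and 7.65 in the control, a difference of 0.57 just inside the 1.5-fold limit of 0.58. Its deposited intensities, 301 with cocaine and 199 in the control, lay just past 1.5-fold, so its side of the limit depended on the scaling. The riboflavin transporter Slc52a2 was 7.55 with cocaine and 7.15 in the control. The mitochondrial carrier Slc25a32 was among the 2 with identical deposited values. Its log2 intensities of 8.99 with cocaine and 9.06 in the control differ only through quantile normalization.

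Of the 8 genes for the later steps of mitochondrial β-oxidation, all were measured, all lay within 1.5-fold and 3 held identical deposited values, with a median of -0.01. Eci1, an enoyl-CoA isomerase, had a log2 intensity of 6.22 in the cocaine thymus and 5.72 in the control thymus. Echs1, the short-chain enoyl-CoA hydratase that takes up the product of Acads, was 9.59 with cocaine and 9.27 in the control. Hadhb, the thiolase subunit of the trifunctional protein for long chains, was 11.33 with cocaine and 11.48 in the control. The carnitine shuttle brings long chains into the matrix, while short chains can enter without it. Of its 7 measured genes, 0 were higher and 1 was lower by more than 1.5-fold, with a median of -0.19, which was -0.11 to -0.17 under the other scalings. The lower gene was Cpt2, at 7.29 with cocaine and 8.03 in the control, a difference of -0.74. Next came Cpt1b, the muscle form of the outer membrane transferase (6.29 with cocaine and 6.59 in the control), while Slc25a20, the carnitine carrier, was 8.26 with cocaine and 8.45 in the control, and Cpt1c was 5.58 with cocaine and 5.77 in the control.

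Around Ivd, Acadsb and Acad8, 18 of 21 listed genes of branched-chain amino acid breakdown were measured, and all 18 lay within 1.5-fold with a median of 0.01. Mccc1, a subunit of the carboxylase that follows Ivd in the leucine pathway, had a log2 intensity of 9.69 in the cocaine thymus and 9.30 in the control thymus, while the other subunit, Mccc2, held the same deposited value on both arrays. Pccb, a subunit of propionyl-CoA carboxylase, was 7.70 with cocaine and 7.37 in the control. Dbt, the core of the branched-chain ketoacid dehydrogenase, was 10.29 with cocaine and 10.69 in the control, and was the lowest of the list. Around Gcdh, all 11 listed genes of lysine and tryptophan breakdown were measured, of which 1 was higher and 1 lower by more than 1.5-fold. Both were below the 25th percentile of mean intensity: Ido1, which opens the kynurenine pathway, was 5.41 with cocaine and 4.77 in the control, and Tdo2, its liver counterpart, was 4.28 with cocaine and 4.90 in the control. Within 1.5-fold, Afmid was 6.58 with cocaine and 6.28 in the control, Kmo was 7.10 with cocaine and 7.33 in the control, and Dlst was 10.29 with cocaine and 10.52 in the control.

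Acad9 works in complex I assembly beside Ecsit, Ndufaf1, Tmem126b, Timmdc1, Coa1 and Tmem186, of which 5 were measured. Tmem126b was higher by more than 1.5-fold, at 6.97 with cocaine and 6.32 in the control, and 0 were lower by as much. Ndufaf1 was on the other side, at 7.09 with cocaine and 7.54 in the control, so the partners spread from -0.46 to 0.64 around a median of 0.26. Tmem186 was 6.92 with cocaine and 6.55 in the control, and Timmdc1 was 8.85 with cocaine and 8.59 in the control. Of 11 regulators of oxidation genes, 1 was higher and 2 were lower by more than 1.5-fold, with a median of -0.05. Prkaa2, a catalytic subunit of AMPK, was 7.45 with cocaine and 8.17 in the control, and Pparg was 5.53 with cocaine and 6.20 in the control. The very dim Ppargc1a, a coactivator of oxidation genes, was 4.42 with cocaine and 3.78 in the control. Ppara, the fatty acid receptor that induces oxidation genes in liver, was 5.48 with cocaine and 5.71 in the control, and the deacylases of the matrix Sirt3 (6.57 with cocaine and 6.09 in the control) and Sirt5 (9.60 with cocaine and 9.39 in the control) lay within 1.5-fold.

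**Figure D3:**
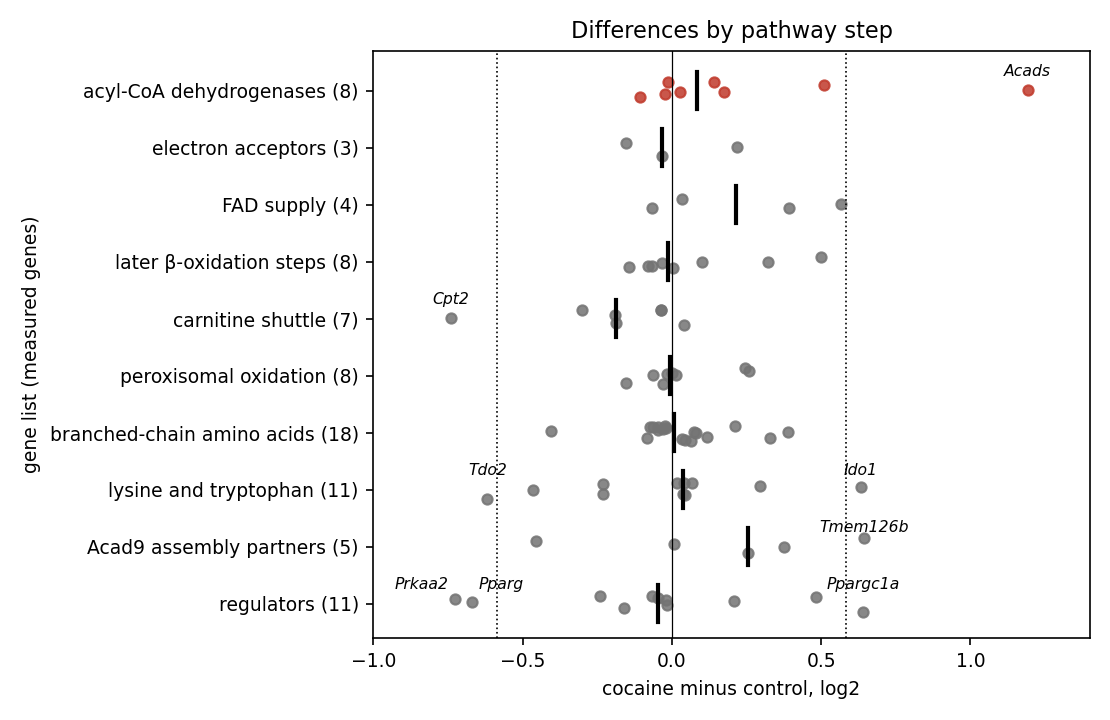
Cocaine minus control log2 difference of each measured gene (points, with a small vertical scatter for legibility) in the family and in 9 lists of related steps, with the number of measured genes in parentheses, medians as black bars and dotted lines at 1.5-fold. Acads (1.19) was picked for its difference, so its place beyond every gene of the other lists was close to fixed in advance. The differences of those genes run from -0.74 (Cpt2) to 0.64 (Tmem126b).

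Taking the 10 related lists with Acad11 as 77 measured genes, 3 were higher and 4 lower by more than 1.5-fold, beside 1.98% and 2.29% of all transcript clusters. The same shares stand beside the counts of the single lists and of the cell type markers. Each of the list genes past 1.5-fold after quantile normalization lay within the background range (up to 177) on the cocaine array, the control array or both. Of the 77 genes, 0 had a difference as high as that of Acads, and 4 had one as high as that of Ivd. Since Acads was picked for its difference, that 0 was close to fixed in advance, and nothing is read from it. Their median was -0.02. Identical deposited values were held by 22 of the 77 (28.6%), near the share over all transcript clusters.

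On rat chromosome 12, the neighbours of Acads in gene order were looked at after its value was seen. Of the 5 protein-coding genes on either side in RefSeq (GRCr8), 8 had a named row, and none of the 10 overlapped the Acads gene span. Cabp1, a calcium-binding protein gene with a dim row, was the only one past 1.5-fold, at 6.53 in the cocaine thymus and 5.83 in the control thymus. C12h12orf43 was 8.10 with cocaine and 7.57 in the control, and Pop5, a subunit of RNase P, was 10.08 with cocaine and 9.66 in the control. Unc119b, next to Acads, held the same deposited value on both arrays, and Mlec, an endoplasmic reticulum lectin gene, was 12.26 with cocaine and 12.68 in the control. The 8 differences ran from -0.42 to 0.70.

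**Figure D4:**
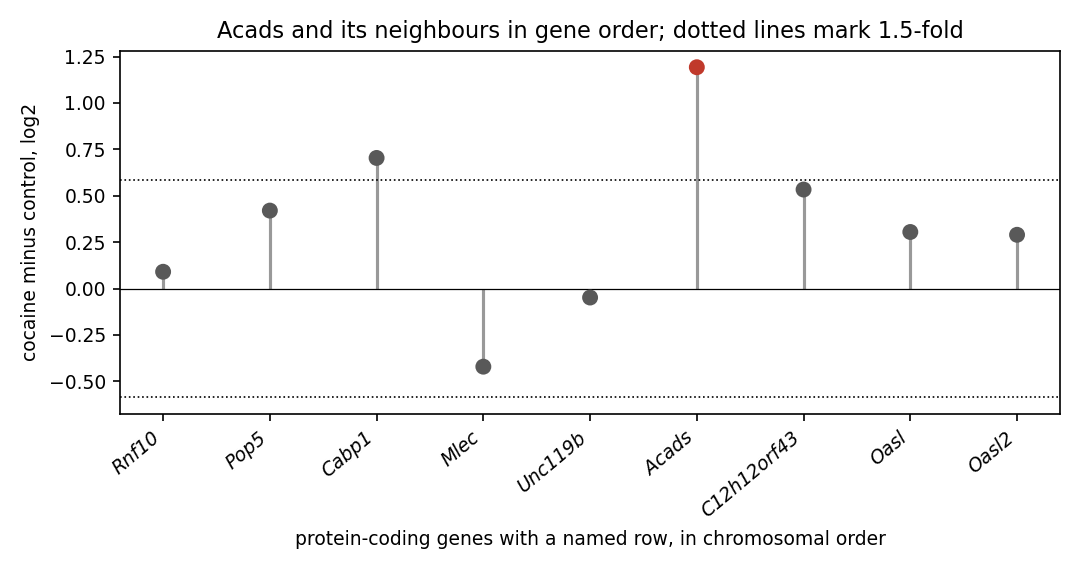
Cocaine minus control log2 difference of Acads (red) and of the 8 neighbouring protein-coding genes with a named row, in gene order, with dotted lines at 1.5-fold. Acads (1.19) was picked for its difference, so its place above all of its measured neighbours was close to fixed in advance. Of these neighbours Cabp1 (0.70) is the highest and Mlec (-0.42) the lowest.

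The label of the tissue was checked against markers, since the note on RNA extraction names spleen. Of 9 markers of immature thymocytes 8 were measured, all within 1.5-fold, with Rag1 at 18.87 on both arrays and Dntt at 18.30 on both, at or above percentile 99.87. The 3 measured B cell markers of 6 lay between 6.51 and 7.86. Other cell types that could bring in dehydrogenase mRNA moved as follows, and their part in the Acads difference was not tested. Past 1.5-fold, 3 adipocyte markers of the 6 measured were lower and 0 higher (summed deposited intensity 4338 with cocaine and 8857 in the control), with Adipoq at 8.31 with cocaine and 9.56 in the control and Gpd1 at 8.03 with cocaine and 8.98 in the control. Most of that sum was Fabp4, with a deposited intensity of 3499 with cocaine and 7387 in the control. Of the other 3 adipocyte markers, Cidec (0.29) and Lipe (0.01) had differences above 0 and within 1.5-fold. Lep held the same deposited value on both arrays, and its difference of 0.04 came only from quantile normalization. All 5 brown adipocyte markers lay within 1.5-fold (summed 613 with cocaine and 738 in the control). Of 6 hepatocyte markers, 1, Alb, was lower (summed 454 with cocaine and 704 in the control), and of 5 measured striated muscle markers 0 passed 1.5-fold (summed 306 with cocaine and 342 in the control). Of 6 macrophage markers, 1 was higher, Csf1r, at 6.59 with cocaine and 5.91 in the control (summed 5196 with cocaine and 4884 in the control). Its deposited intensities, 95.1 with cocaine and 61.0 in the control, lay within the background range. Within 1.5-fold, Marco differed by 0.32 and Adgre1 by 0.21, both also within the background range, and the brighter Cd68 by 0.12. C1qb differed by -0.07, though its deposited intensity was 957 with cocaine and 956 in the control. C1qa held the same deposited value on both arrays. Of 4 measured erythroid markers, 2 were lower and 0 higher (summed 2795 with cocaine and 4318 in the control), namely Slc4a1 (-1.29) and Hba-a1, which made up most of the sum with 2354 with cocaine and 3872 in the control. Within 1.5-fold, Hbb differed by -0.04 and Alas2 by 0.54. In bulk RNA, fewer cells of a type and less RNA per cell cannot be told apart.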

How the data were processed

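Thymus RNA of cocaine and control rats was hybridised to 1 Clariom S array per group. The authors used Transcriptome Analysis Console (TAC) software and deposited 1 linear intensity for each row of an array. Its version, background correction, normalization and genome build were not given in the sources used here. Of 24834 rows, 1646 control rows were left out of scaling and ranks, which left 23188 transcript clusters, of which 15049 had 1 gene symbol in the platform annotation, 0 several and 8139 none. All 15049 matched RefSeq (GRCr8) by gene number. The members, lists and settings were chosen with earlier results of these data known.

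Intensities were quantile normalized between the 2 arrays and taken to log2, and the difference was cocaine minus control. Quantile normalization moved differences by at most about 0.10 on the log2 scale, and gave small differences to rows deposited with identical values. For genes with more than 1 transcript cluster the brightest was used, and each measured member had 1. Limits were 1.5-fold and 2-fold, and a fold is the ratio of the brighter value to the dimmer. Genes named were all members, pathway list genes past 1.5-fold, up to 3 others per list with the largest differences at or above the 25th percentile of mean intensity, all electron acceptors, Acad11, the 5 genes nearest to Acads in both log2 levels, and Rag1 and Dntt as checks of the label. Some items are not reported here. Acox2, Mccc2, Acsm1, Acsm2, Acsm3, Dmgdh, Sardh, the other markers and the neighbours of Acads were named outside this rule, once their values had been seen. Alternatives were the values as deposited, median centring, a lowess curve, filters on dim rows, the mean of transcript clusters and list means. The steps were tested on simulated data with planted differences larger than that of Acads. That run checks the calculation and says nothing about the noise of these arrays. No test was possible with 1 array per group. Calculations used numpy 2.4.6, pandas 2.3.3 and statsmodels 0.14.6 in Python 3.11.15, and plots used matplotlib 3.10.9.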

Additional observations from a re-analysis of the deposited data

How the results depend on the processing

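No paired analysis was possible because a single array stood for each group, which also left no replicate to drop. The Acads difference ran from 1.18 to 1.20 over the main setting and its alternatives. The sign of a member difference turned in 6 of 32 recomputed values, all of them of Acadvl and Acadsb near 0. The mean of transcript clusters changes no member, since each measured member had 1. With rows below the median mean intensity left out, 0 members were past 1.5-fold, since Acads, at percentile 48.9, was left out. The mean difference of the 8 members was 0.24, where the median was 0.09. Among the 77 genes of related lists, the 3 higher and 4 lower genes became 0 and 0 at 2-fold, 0 and 2 without rows below the median mean intensity, and 1 and 3 without rows below the 25th percentile. For the values as deposited and under median centring they were 4 and 4, with Rfk past the limit. Under the lowess curve they stayed 3 and 4. Of 132 recomputed values, 125 stayed within the spread of transcript clusters of like intensity, within 1 percentile for ranks or within 1.5 times for counts. Part of these 125 was fixed in advance. The rank of a row on an array cannot change under the values as deposited or median centring, and the mean of transcript clusters cannot move a member. Signal over background limits Acads more than the other members.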

Other observations

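Other enzymes that handle acyl-CoA by chain length were looked at after the values of the dehydrogenases were seen, with no test. Of 16 acyl-CoA synthetases, which load fatty acids onto CoA, 14 were measured and all lay within 1.5-fold, with a median of 0.04 on the log2 scale. Acss1, the mitochondrial enzyme for acetate, was 10.01 in the cocaine thymus and 9.75 in the control thymus. Acsl5, for long chains, was 12.00 with cocaine and 11.72 in the control, and Acsl6 was 6.67 with cocaine and 6.34 in the control. The medium-chain enzymes of the Acsm group were dim, and Acsm1, Acsm2 and Acsm3 held identical deposited values on both arrays. Of 13 acyl-CoA thioesterases, which release the fatty acid again, 12 were measured, all within 1.5-fold. Acot7 was 10.18 with cocaine and 9.67 in the control, Them4 was 5.99 with cocaine and 6.53 in the control, and Acot3 was 5.60 with cocaine and 5.92 in the control.

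The difference of Acads was also set beside other FAD enzymes of mitochondria that are not acyl-CoA dehydrogenases. Of 12 listed, 10 were measured and all lay within 1.5-fold, between -0.28 (Sqor) and 0.16 (Ppox), with a median of -0.03. Prodh, the proline dehydrogenase, was 5.82 with cocaine and 5.97 in the control. Dmgdh and Sardh, which pass electrons to the same flavoprotein as the acyl-CoA dehydrogenases, differed by 0.04 each. Dmgdh held identical deposited values, and those of Sardh were 43.1 with cocaine and 43.0 in the control. Both differences of 0.04 thus came almost wholly from quantile normalization.

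The 5 named genes whose pair of log2 levels lay nearest to that of Acads, by Euclidean distance over the 2 arrays, were Defb14 (7.03 with cocaine and 6.11 in the control), Abo (7.16 with cocaine and 6.30 in the control), Or8b54b (7.08 with cocaine and 6.30 in the control), Cpped1 (7.16 with cocaine and 6.36 in the control) and Odf2l (7.15 with cocaine and 6.37 in the control). Their distances ran from 0.23 to 0.33, and each differed by less than Acads did. Acads was picked for a difference near the top of all named genes. A smaller difference in its nearest genes was therefore close to fixed in advance, and nothing is read from it.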
